A study of Mus musculus with 6 samples.

Results

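The regions described here are FXR peaks that were listed in the liver of mice whose hepatocytes lack Bcl6 and that had no counterpart in the control list. They were chosen by 2 measured criteria. A peak of the Bcl6LKO list was taken when no peak of the control list overlapped it by 1 bp or more, and when its value in the input library was at or under the 95th percentile of that list, 2.49 on a log2 scale. Of 12495 peaks in the Bcl6LKO list, 2535 met both criteria, or 20.3%, and they are called LKO-only peaks. A further 42 peaks had no overlap with the control list but lay above the input limit. The 9335 Bcl6LKO peaks that overlapped a control peak and lay at or under the same limit are called shared peaks and serve for comparison.

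FXR was mapped by ChIP-seq, in which crosslinked chromatin is immunoprecipitated with an antibody and the recovered DNA is sequenced. The control mice were Bcl6fl/fl C57BL/6 males, which carry loxP-flanked Bcl6 alleles and no Cre (written WT). The Bcl6LKO males (written LKO) carried the same floxed alleles with Alb-cre, whose albumin promoter is active in hepatocytes, so the other cells of the liver keep Bcl6. There were 2 FXR ChIP libraries per genotype, and 1 input library of chromatin that was not immunoprecipitated. Ages and diets were not given in the labels.

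FXR, encoded by Nr1h4, is the nuclear receptor for bile acids. It binds DNA mostly as a heterodimer with RXR, and its preferred element is IR1, a pair of AGGTCA half-sites in inverted orientation with 1 base between them. In the liver it lowers bile acid synthesis through SHP and raises bile acid export. BCL6 is a zinc finger repressor that recruits corepressors, is abundant in male hepatocytes, and shares many DNA sites with STAT5.

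The label of these peaks holds for the peak lists and not necessarily for binding. WT values exist only at WT peaks, so the WT signal at an LKO-only peak was not measured by the tables used here. The WT list was the longer one, with 20040 peaks at 9025 genes against 12495 peaks at 6877 genes in the LKO list. The pooled LKO ChIP libraries held 43924876 tags and the pooled WT ChIP libraries 21906335, a ratio of 2.01. WT replicate 2 held 2883717 tags, so that WT replicate 1 supplied 86.8% of the WT pool. The part of depth in the absence of WT peaks was not tested. Peaks were called on pooled libraries, and the membership of a peak therefore has no replicate spread. The 5 hepatocyte genes Alb, Ttr, Apoa1, Cps1 and Hnf4a all had both LKO and WT peaks.

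Of the 2535 LKO-only peaks, 357 (14.1%) carried an IR1 match, that is AGGTCANTGACCT searched on both strands up to 100 bp from the peak centre, allowing 2 mismatches outside the spacer. The match was exact at 4 peaks and had 1 mismatch at 72 and 2 mismatches at 281. The 8 sequences that follow show what such peaks looked like. Each is the central 120 bases of a peak, read 5′ to 3′ on the + strand of GRCm38.p6, which has the coordinates of mm10, with the IR1 match in capitals. The first 5 are from the 8 strongest LKO-only peaks with at most 1 mismatch, and the last 3 hold exact matches.
Hspa12a (chr19:58864157-58864276, intron 2 of Hspa12a): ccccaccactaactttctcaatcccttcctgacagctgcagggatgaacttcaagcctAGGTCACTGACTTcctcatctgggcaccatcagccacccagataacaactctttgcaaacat
Speer4f1 (chr5:17141676-17141795, intergenic): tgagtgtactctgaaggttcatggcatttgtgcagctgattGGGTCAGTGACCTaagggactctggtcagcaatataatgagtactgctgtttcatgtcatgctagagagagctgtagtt
Ccdc71l (chr12:32307280-32307399, intergenic): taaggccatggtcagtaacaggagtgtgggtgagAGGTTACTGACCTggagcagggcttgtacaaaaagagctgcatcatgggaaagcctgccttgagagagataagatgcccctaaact
1700016K05Rik (chr17:66709253-66709372, intron 23 of Ptprm): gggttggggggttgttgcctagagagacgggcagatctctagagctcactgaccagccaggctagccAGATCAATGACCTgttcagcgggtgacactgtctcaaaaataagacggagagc
Camk2b (chr11:6021906-6022025, intron 2 of Camk2b): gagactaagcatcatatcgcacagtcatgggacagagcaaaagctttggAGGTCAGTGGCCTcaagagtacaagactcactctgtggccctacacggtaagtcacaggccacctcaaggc
Mir1251 (chr10:92129859-92129978, intron 9 of Rmst): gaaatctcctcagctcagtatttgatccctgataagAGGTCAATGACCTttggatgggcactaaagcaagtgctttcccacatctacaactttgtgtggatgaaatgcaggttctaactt
Mir3092 (chr3:27490082-27490201, intron 11 of Fndc3b): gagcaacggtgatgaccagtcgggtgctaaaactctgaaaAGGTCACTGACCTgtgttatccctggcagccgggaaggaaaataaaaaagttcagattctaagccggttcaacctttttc
Plk2 (chr13:110457758-110457877, intergenic): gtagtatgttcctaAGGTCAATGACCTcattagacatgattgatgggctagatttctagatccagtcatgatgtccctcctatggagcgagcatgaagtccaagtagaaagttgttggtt

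The single mismatches in the first 5 were C12T, A1G, C5T, G3A and A10G, counted from 1 at the first base of the 13-base element with the base of the element given first. Mismatches were thus found in both half-sites. The element reads the same on both strands, so position 1 pairs with position 13 and position 4 with position 10. Over the 357 sites, A stood at position 1 in 77.6%, and A1G was the commonest change with 14.8%. Position 10 kept its A in 74.8%, the lowest share of the 12, while position 9 kept its G in 91.3%, the highest. The sites of shared peaks had a like profile, with 80.5% at position 1, 74.5% at position 10 and 73.3% at position 4, where the LKO-only sites had 76.8%.

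Some of the highest-ranked sites lay in transcribed exons, and only the 13 bases of the element are given for these. The fifth strongest LKO-only peak, assigned to Nudt18, held TGGTCAATGACCT at chr14:70584300-70584312 in the 3′ UTR of the neighbouring gene Fam160b2. The Uap1 peak held AGGTCATTGACAT at chr1:170166889-170166901 in exon 2 of Uap1, which encodes a UDP-N-acetylglucosamine pyrophosphorylase. The Tipin peak held AGGTCAATGTCCT at chr9:64304919-64304931 in a non-coding exon of Tipin, a replication checkpoint gene. The fourth exact match, AGGTCATTGACCT, lay at chr3:50370245-50370257 in sequence annotated as the 3′ UTR of Slc7a11, which encodes the cystine and glutamate exchanger. Its peak was 73.4 kb from the TSS of Slc7a11. Whether this sequence has close copies elsewhere in the genome was not tested. The 4 exact sites belonged to peaks of moderate strength, at 4.36 ± 0.39 (Mir1251), 4.33 ± 0.13 (Mir3092), 4.17 ± 0.35 (Plk2) and 4.13 ± 0.48 (Slc7a11). Strength here and below is the mean of the 2 LKO ChIP values in log2 tags, given with its SD (n = 2 libraries).

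**Figure D1:**
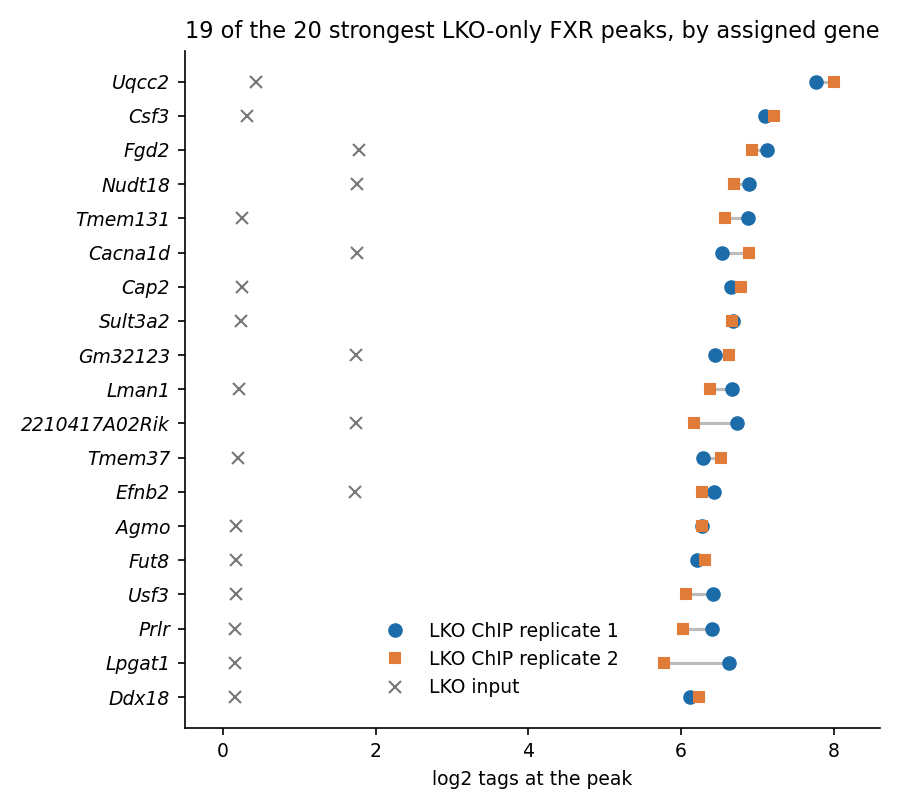
Log2 tags in LKO ChIP replicate 1 (circles), LKO ChIP replicate 2 (squares) and LKO input (crosses) at 19 of the 20 strongest LKO-only peaks, named by assigned gene and ordered by strength. All ChIP values lie above 5.7, input lies well below in every case, and the replicates are farthest apart at Lpgat1 (6.63 and 5.78).

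The strongest LKO-only peak was assigned to Uqcc2, an assembly factor of mitochondrial complex III. It lay at chr17:27119946-27120150 in intron 56 of another gene, Itpr3, which encodes an inositol trisphosphate receptor, and held 7.76 and 8.0 log2 tags in LKO replicates 1 and 2 against 0.44 in input. No WT peak was assigned to Uqcc2, the nearest one lay 14.9 kb away, and the peak had no IR1 match.

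The next was assigned to Csf3, the gene of the granulocyte growth factor G-CSF, and lay at chr11:98709471-98709675 in intron 19 of Med24, a subunit of Mediator. It held 7.10 and 7.22 log2 tags with 0.32 in input, and Csf3 had no WT peak either. The third, intergenic and assigned to Fgd2, a guanine nucleotide exchange factor, held 7.13 and 6.93 with 1.78 in input. Its surroundings differed, since Fgd2 had 7 WT peaks and the closest lay only 0.151 kb away.

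The Nudt18 peak held 6.89 and 6.69 (input 1.76). The Tmem131 peak, which was intergenic, held 6.88 and 6.57 (input 0.25), at a gene with 8 WT peaks. At these 5 peaks the SD of the replicates was at most 0.22, and both replicates stood far above input.

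Ranks 7 to 20 fell to Cacna1d, Cap2, Sult3a2, Gm32123, Lman1, 2210417A02Rik, Tmem37, Efnb2, Agmo, Fut8, Usf3, Prlr, Lpgat1 and Ddx18, with strengths from 6.71 down to 6.17. They include the sulfotransferase gene Sult3a2 (6.67 ± 0.01), the prolactin receptor gene Prlr (6.22 ± 0.27), and Lpgat1 (6.20 ± 0.60), a lysophospholipid acyltransferase gene. Of the first 20 peaks, 11 lay in introns, 8 in intergenic sequence and none in a promoter, and 6 carried IR1. The assigned gene had a WT peak for 15 of the 20 and none for 5. A WT peak lay within 10 kb of 7 of them and none lay within 100 kb of 4. Strong LKO-only peaks were therefore of both kinds, some beside a WT peak and some far from any.

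The input limit removed few peaks, and the values on its 2 sides were close. The peaks just inside were assigned to Crnde, Pisd-ps2 and Cux2, with inputs of 2.49, 2.48 and 2.48 and strengths of 6.14, 5.94 and 5.84. Just outside were peaks at Tmem147, Dao and B230323A14Rik, with inputs of 2.50, 2.50 and 2.50 and strengths of 6.30, 6.4 and 6.41. Ordered by unrounded input, the peaks on both sides were also ordered by strength. Here the limit thus parted stronger from weaker peaks and did not separate them by input alone. Input values were not spread evenly. Of the LKO-only peaks, 85.7% had an input under 1, 10.8% lay from 1 to 2 and 3.43% from 2 to the limit, while the shared peaks had 73.2%, 21.1% and 5.74% in these 3 bands. Input was part of the rule, which removed the highest values from both sets, so these shares are a description only.

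**Figure D2:**
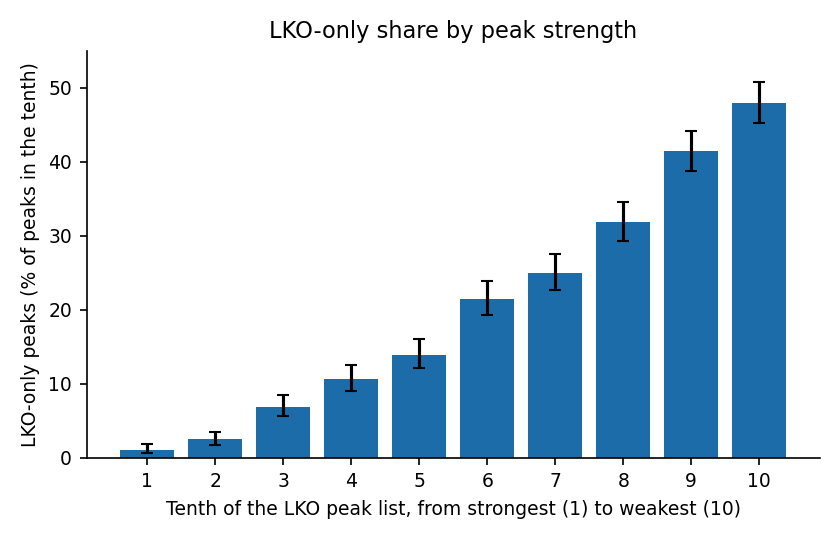
Share of LKO peaks that are LKO-only (%, with 95% Wilson intervals over peaks) in 10 equal bins of the 12495 LKO peaks ordered from the strongest (1) to the weakest (10). The share climbs in every step, from 1.12% to 48.0%.

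Most LKO-only peaks were weak. Their strength ran from 3.29 to 7.88 with a median of 4.19 and quartiles of 3.92 and 4.58, while shared peaks had a median of 4.86 and reached 9.47. Of the 1249 strongest LKO peaks, 14 (1.12%, 95% Wilson interval 0.669 to 1.87%) were LKO-only, against 600 of the 1250 weakest (48.0%, 45.2 to 50.8%). These intervals, like those below, cover counting over peaks and not variation between mice. By the deposited peak scores and library totals, the pooled LKO libraries held an estimated 51.8 tags at the median LKO-only peak and 80.8 at the median shared peak, with a lowest value of 39 in each set. In all, 438 LKO-only peaks reached the median strength of the LKO list.

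Replicates were further apart at LKO-only peaks than at shared ones. The difference between LKO replicates 2 and 1 had a SD of 0.54 over the LKO-only peaks and 0.43 over the shared peaks, and it exceeded 1 in size at 209 peaks (8.24%) and 399 peaks (4.27%). Pearson's r between the replicates, taken over peaks of the same libraries, was 0.577 and 0.898. The LKO-only peaks spanned a narrower range of strength, and its part in r was not tested. Their tags were also less concentrated. The focus ratio, the share of tags placed as a sharp binding site would place them, exceeded 0.8 at 45.2% of LKO-only peaks (43.3 to 47.2%) and 58.5% of shared peaks (57.5 to 59.5%).

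Whether the assigned genes also had peaks in the control was examined next. The LKO-only peaks were assigned to 2087 genes, which is 30.3% of the 6877 genes with any LKO peak. Of these 2087 genes, 1478 (70.8%) had at least 1 WT peak elsewhere, 1007 had 2 or more and 344 had 5 or more. The other 609 genes (29.2%) had none, and 507 of them were protein-coding. At 1154 of the genes an LKO peak shared with WT was present too, while 324 had a WT peak and an LKO peak but no shared one. Most genes, 1738, held 1 LKO-only peak, whereas 270 held 2, 60 held 3 and 19 held 4. Counted over peaks, 1853 of 2535 (73.1%, 71.3 to 74.8%) were at a gene with a WT peak, against 94.3% of all LKO peaks. The share over all LKO peaks includes the shared peaks, nearly all of which have a WT peak at their gene by construction.

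**Figure D3:**
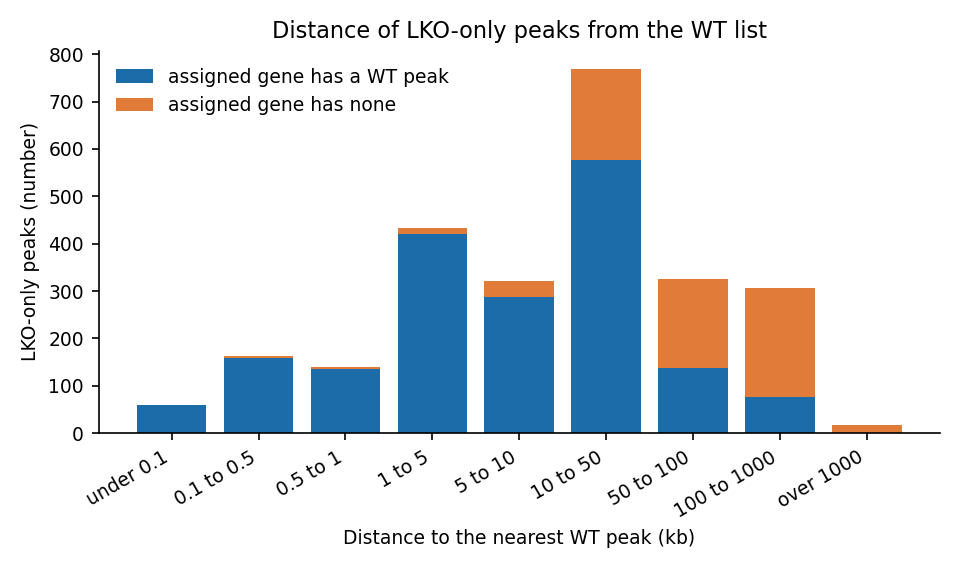
Number of LKO-only peaks by distance to the nearest WT peak (kb), divided into those whose assigned gene has a WT peak and those whose gene has none. All 59 peaks under 0.1 kb are at genes with a WT peak, the fullest bin is 10 to 50 kb (769 peaks), and none of the 17 peaks over 1000 kb away has one.

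The distance to the nearest WT peak had a median of 14.1 kb and quartiles of 3.18 and 51.1 kb. It was within 0.5 kb for 221 peaks (8.72%), within 10 kb for 1116 (44.0%) and over 100 kb for 324 (12.8%). Median strength was 4.31 within 0.5 kb and 4.15 beyond 100 kb. IR1 was present in 11.9% of the peaks within 10 kb of a WT peak and in 17.0% of those beyond 100 kb. The share did not rise steadily with distance. It was 8.47% under 0.1 kb, 17.3% from 0.1 to 0.5 kb and 10.3% from 5 to 10 kb. The peaks at genes with a WT peak and those at genes without had median strengths of 4.19 and 4.16 and carried IR1 in 13.9% and 14.5%. Their median distances to a WT peak were 7.37 and 72.1 kb.

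Peaks a short way from a WT peak included that of Fut8, the core fucosyltransferase gene, where 6.21 and 6.31 log2 tags lay 0.031 kb beyond the edge of a WT peak. At Ctsl, which encodes the lysosomal protease cathepsin L, the LKO-only peak of intron 1 (5.52 ± 0.03) ended 0.020 kb from one. At the other extreme, Gm32123, a non-coding RNA gene with no WT peak, held 4 LKO-only peaks over 245 kb of chromosome 14. The strongest held 6.44 and 6.62 log2 tags, 336 kb from any WT peak, and the other three had strengths of 4.41, 4.34 and 4.03. The peak in intron 1 of Efnb2, the ephrin B2 gene, held 6.43 and 6.27 and was 375 kb away. That of Agmo, the alkylglycerol monooxygenase gene, held 6.27 and 6.27 at 101 kb, and those of Ddx18, a helicase gene (6.17 ± 0.09), and Crnde (6.14 ± 0.29) lay 124 and 168 kb from a WT peak.

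Among genes with no WT peak, the strongest LKO-only peaks after Uqcc2 and Csf3 were those of Cap2, an actin regulator (6.71 ± 0.09), Gm32123, Ddx18, Tipin (6.06 ± 0.03), Ei24, an autophagy gene (5.95 ± 0.20), and Cdc5l, a splicing factor gene (5.84 ± 0.30). The Cap2, Ei24 and Cdc5l peaks lay in introns at the SINE elements ID_B1, B3A and ID, with 35.6 to 44.4% of each peak soft-masked as repeat. Genes that collected 4 LKO-only peaks included Gm32123, Crnde, Fam49a, Psapl1, Foxk1, Rrm2, Setbp1, Gm17746 and Eepd1. Rrm2, a subunit of ribonucleotide reductase, had 4 LKO-only peaks within 23.6 kb, 1 WT peak and no shared peak, whereas the non-coding gene Gm17746 had 13 WT peaks beside its 4.

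**Figure D4:**
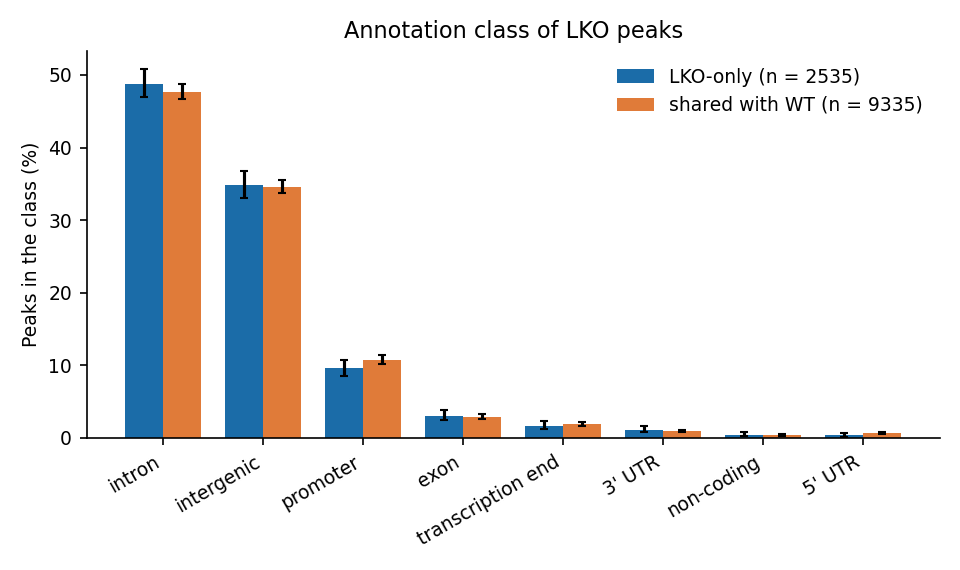
Share of LKO-only and shared peaks in each annotation class of the deposited tables (%, with 95% Wilson intervals over peaks). The intervals of the sets overlap in every class, with introns at 48.8 and 47.7% and promoters at 9.59 and 10.8%.

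By class, 1238 LKO-only peaks (48.8%) were intronic, 885 (34.9%) intergenic and 243 (9.59%, 8.50 to 10.8%) in promoters. Exons held 77, transcription ends 43, 3′ UTRs 28, non-coding exons 12 and 5′ UTRs 9. Shared peaks had 47.7% in introns, 34.6% in intergenic sequence and 10.8% (10.2 to 11.4%) in promoters, and the intervals of the sets overlapped in each of these classes. LKO-only peaks lay farther from the TSS of the assigned gene. Their median distance to the TSS was 19.2 kb against 13.4 kb, and 35.2% (33.4 to 37.1%) against 43.4% (42.4 to 44.4%) were within 10 kb of it. The assigned gene was protein-coding for 84.0% and a non-coding RNA for 15.2%. At 409 LKO-only peaks (16.1%) the peak lay inside the transcript of a gene other than the assigned one, as at Uqcc2 and Csf3, so assignment by nearest TSS and location differ there.

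In promoters the strongest LKO-only peak was that of Neat1, a nuclear RNA that scaffolds paraspeckles, with 5.78 and 5.65 log2 tags 0.419 kb upstream of the TSS and 0.062 kb from a WT peak. The next were Acad10, which is annotated in the promoter of its neighbour Brap (5.63 ± 0.03, no WT peak at Acad10), the kinase gene Nek1 (5.59 ± 0.11, 0.079 kb from a WT peak), Rragc, a RAG GTPase of mTORC1 signalling (5.56 ± 0.01), and Arhgap28 (5.42 ± 0.06, no WT peak). None of these 5 carried IR1. Over all 243 promoter peaks IR1 was found in 11 (4.53%), against 122 of the 885 intergenic peaks (13.8%), 66 of 485 in first introns (13.6%) and 130 of 753 in later introns (17.3%). The gene had a WT peak at 152 of the 243 promoter peaks.

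**Figure D5:**
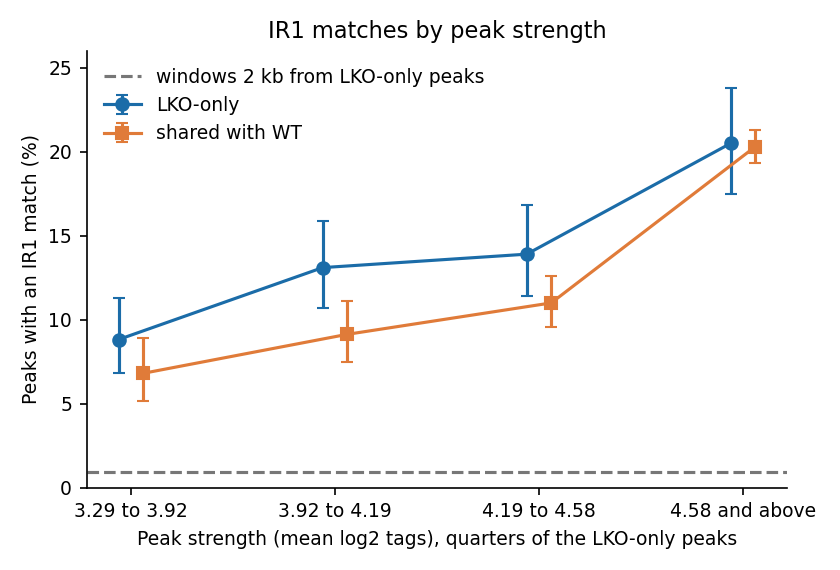
Share of LKO-only and shared peaks with an IR1 match (%, with 95% Wilson intervals over peaks) in 4 ranges of peak strength that each hold an equal number of LKO-only peaks, with the share in windows 2 kb away as a dashed line. Both sets rise with strength to 20.5 and 20.3% in the strongest range, and both lie above the 0.927% of the windows.

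IR1 was present in 14.1% of LKO-only peaks (12.8 to 15.5%) and in 0.927% of windows of the same length 2 kb to either side. In shared peaks it was present in 16.4% (15.7 to 17.2%), an interval that did not overlap the first. The sets differ in strength, so the shares were also read within ranges of strength. From the weakest to the strongest of 4 ranges with equal numbers of LKO-only peaks they were 8.82, 13.1, 13.9 and 20.5%, and shared peaks in the same ranges had 6.81, 9.13, 11 and 20.3%. The strongest range took in shared peaks up to 9.47, beyond the strongest LKO-only peak. LKO-only peaks thus had the higher share in each range, the reverse of the order over all peaks. The intervals of the sets overlapped in all 4 ranges, and the difference was not tested. Matches lay near the centre, within 20 bp of it at 208 of 357 sites (58.3%), and the median offset was 16 bp against 15 bp in shared peaks. A match is a description of the letters and does not show that FXR contacts them.

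Other elements made of the same half-site were also present. AGGTCA itself, on either strand, was found in 39.3% of LKO-only peaks (37.4 to 41.2%) and in 13.2% of the windows 2 kb away. The direct repeat AGGTCANAGGTCA (DR1, bound by many RXR heterodimers and HNF4) with at most 2 mismatches was found in 11.2% and 3.23%, the direct repeat with a 4-base spacer (DR4) in 7.53% and 2.60%, and the everted repeat with a 2-base spacer (ER2) in 4.62% and 1.40%. Shared peaks had 42.1% for the half-site, 12.3% for DR1, 6.58% for DR4 and 6.34% (5.87 to 6.85%) for ER2, and the intervals of the sets overlapped for the half-site, DR1 and DR4 but not for ER2. Within the 4 ranges of strength the ER2 shares were 4.25, 4.57, 4.75 and 4.89% in LKO-only peaks and 5.36, 5.54, 4.99 and 6.97% in shared peaks, with overlapping intervals in each. Matches of these kinds may overlap each other. None of IR1, DR1, DR4, ER2, IR0 or an exact half-site was found in 1255 LKO-only peaks (49.5%) and in 46.2% of shared peaks.

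Elements of HNF4, C/EBP and HNF1, factors of liver gene expression, were found in a smaller share of LKO-only than of shared peaks. The HNF4 element CAAAGTCCA with at most 1 mismatch was found in 12.1% (10.9 to 13.5%), against 15.4% (14.7 to 16.2%) of shared peaks and 5.94% of windows 2 kb away. The C/EBP element TTGCNNAA was found in 12.8% (11.6 to 14.2%), against 16.3% (15.5 to 17.0%) and 7.44%. Within the 4 ranges of strength, the HNF4 share was 12.3, 12.3, 12.8 and 11.2% in LKO-only peaks and 18, 17.1, 15.7 and 14.8% in shared peaks. The HNF4 intervals did not overlap in the weakest range, and overlapped or met in the others. The C/EBP share was 13.4, 13.6, 13.4 and 10.9% in LKO-only peaks and 17.4, 18.3, 16.2 and 15.8% in shared peaks. Its intervals overlapped in all ranges but the strongest, with 8.69 to 13.5% and 14.9 to 16.8%. The HNF1 element GTTAATNATTAAC, with at most 2 mismatches, was found in 1.81% (1.36 to 2.41%) of LKO-only and 2.83% (2.51 to 3.18%) of shared peaks. FOXA (TGTTTAC, 7.10 and 6.71%) and AP-1 (TGANTCA, 8.80 and 8.32%) had overlapping intervals. The letters TTCNNNGAA, the core that STAT5 reads, stood in 5.84% of LKO-only peaks, 6.64% of shared peaks and 6.41% of the windows, and TTCCNNGAA, as in BCL6 sites, stood in 3.47, 3.77 and 3.18%. These last shares were alike, with overlapping intervals between LKO-only and shared peaks.

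The deposited annotation placed 5.96% of LKO-only peaks at a SINE, 4.81% at an LTR, 2.17% at a LINE and 1.89% at a CpG island, and shared peaks had 5.99, 4.48, 2.40 and 1.80%. Soft-masked repeat covered 9.74% of LKO-only peak sequence on average and 9.87% of shared peak sequence. Families held IR1 in unequal counts. B4A, a rodent SINE, was the site of 16 LKO-only peaks, of which 7 carried IR1, as in the 1700016K05Rik sequence above. ID_B1, another SINE, was the site of 17, of which 0 carried IR1. RSINE1 was the commonest with 23 peaks, 6 of them with IR1. GC content was 51.6% in LKO-only peaks and 45.7% in the windows 2 kb away.

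Genes of liver pathways were read from 24 lists holding 759 genes. Of the 495 listed genes with an LKO peak, 144 (29.1%) held an LKO-only peak, which is near the 30.3% of all genes with an LKO peak. Of these 144 genes, 128 also had a WT peak and 16 had none. Of the 179 LKO-only peaks in the lists, 24 lay in promoters, 24 carried IR1 and 111 lay within 10 kb of a WT peak. The lists are described below by function, and counts in lists of a few genes are too small to set one against another.

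Among bile acid genes, 1 of 15 synthesis and conjugation genes with an LKO peak held an LKO-only peak. It was Hsd3b7, a hydroxysteroid dehydrogenase of bile acid synthesis, whose peak held 4.25 and 3.70 log2 tags and which had no WT peak of its own. Transporters had 5 of 13, namely Slc10a2, the apical bile acid carrier (4.74 ± 0.15), Abcc2 and Abcc4, exporters of conjugates (4.15 ± 0.19 and, at its stronger peak, 4.14 ± 0.72), the lipid flippase gene Atp8b1 (3.91 ± 0.18), and the uptake carrier gene Slco1a4 (3.81 ± 0.27). The Abcc2 peak alone carried IR1, with 2 mismatches. Of the FXR feedback and FGF signalling genes, 4 of 16 held one: Foxa2 (2 peaks, 4.20 ± 0.58 and 3.99 ± 0.40), Fgfr1 (4.07 ± 0.29), Nr5a2, which encodes LRH-1 (4.0 ± 0.11), and Fgfr2 (3.59 ± 0.65). All 9 transporter and feedback genes had WT peaks as well. The strengths of the LKO-only peaks in these 3 lists ran from 3.59 to 4.74.

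Of 25 genes of fatty acid and triglyceride synthesis with an LKO peak, 11 (44.0%) held 15 LKO-only peaks. Over all genes with an LKO peak the share was 30.3%. Counted over peaks, 15 of the 62 LKO peaks of the list were LKO-only, beside 20.3% of all LKO peaks. The strongest were in intron 1 of Elovl5, a fatty acid elongase (5.69 and 5.6 log2 tags), and intron 1 of Me1, malic enzyme (4.96 and 5.13). The promoter peak of Fads2, a desaturase, held 4.60 and 4.56 and lay 0.195 kb from a WT peak. Mogat1, a monoacylglycerol acyltransferase, and Dgat1 had no WT peak, and the intergenic Mogat1 peak (4.1 ± 0.06) held the IR1 site AGGTCACTGTCCT at chr1:78568190-78568202, with A10T as its only mismatch. Fatty acid oxidation genes had 4 of 22. Ppara, the nuclear receptor of fasting, had an intergenic peak of 5.55 and 5.31 that lay 0.028 kb from a WT peak and a second in intron 2 (4.57 ± 0.10). Cd36, a fatty acid carrier, had 2 peaks in intron 1 (both 3.92) and no WT peak. In the promoter of Vnn1, a pantetheinase gene, the peak (4.62 and 4.35) held AGGTGATTGACCT at chr10:23894347-23894359, with C5G as its only mismatch.

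Cholesterol genes held LKO-only peaks at 5 of 15, which were Fdft1 (4.35 ± 0.34), Scap (4.16 ± 0.63), Mylip (4.06 ± 0.07), the promoter of Insig1 (3.90 ± 0.78) and Hmgcs1 (3.68 ± 0.94). At Insig1 and Hmgcs1 the replicates were far apart, with 4.45 and 3.35 and with 4.34 and 3.01 log2 tags. Lipoprotein genes had 5 of 23. The strongest was intergenic near Apoa1, the main HDL protein (4.84 and 4.90), at a gene with 13 WT peaks, and Lipc, hepatic lipase, had 3 peaks from 4.1 to 4.62.

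Glucose metabolism and insulin signalling genes held LKO-only peaks at 8 of 23 and at 11 of 20. Counted over peaks, these were 8 of 78 and 12 of 59 LKO peaks of the lists, beside 20.3% of all LKO peaks. The promoter peak of Pfkfb3, which sets fructose 2,6-bisphosphate, held 4.90 and 5.31 log2 tags. Those of G6pc, glucose 6-phosphatase (4.78 ± 0.09), and Sik1, a kinase of gluconeogenic control (4.59 ± 0.52), lay 0.062 and 0.044 kb from WT peaks. In insulin signalling, the strongest were in the promoter of Trib1, a pseudokinase gene (5.14 ± 0.28), in intron 1 of Akt2 (5.10 ± 0.40) and intron 2 of Akt1 (5.10 ± 0.25). An intergenic peak assigned to Irs2 (5.08 ± 0.29) followed, far from the gene at -140552 bp from its TSS. The input of that Akt2 peak was 2.45, in the highest band. Inppl1 and Sh2b2 had no WT peak.

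Genes of the growth hormone and STAT5 axis, which governs male and female liver programmes, had 5 of 15. Prlr held 2 peaks in intron 1, with 6.41 and 6.03 and with 5.52 and 5.28 log2 tags, and Cux2, a female-biased repressor gene, held 2 in intron 2 (5.84 ± 0.44 and 4.66 ± 0.50). The others included Igfbp3 (5.04 ± 0.13), whose peak was intergenic at -545352 bp from the TSS, and Stat5b (4.62 ± 0.12). All 5 had WT peaks, such as 2 at Igfbp3 and 10 at Prlr. None of the 7 peaks carried IR1.

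Nuclear receptor and coregulator genes held LKO-only peaks at 17 of 38 genes, and all 17 genes had WT peaks. These were 26 of the 136 LKO peaks of the list, a share near the 20.3% of all LKO peaks. After Ppara the strongest were in introns of Esr1, the estrogen receptor gene (4.90 ± 0.19), Esrrg (4.89 ± 0.12) and Thrb, a thyroid hormone receptor gene (4.70 ± 0.23). The Esr1 and Thrb peaks carried IR1 with 2 mismatches. Liver-enriched transcription factors had 12 of 32. Nfic was far ahead of the rest at 6.50 and 5.78 log2 tags, in intron 1 with IR1 of 2 mismatches and 0.248 kb from a WT peak, followed by Egr1 (4.81 ± 0.10 and, in its promoter, 4.68 ± 0.32) and Cebpg (4.51 ± 0.77). Clock genes had 4 of 19, with Noct, which encodes nocturnin, at 5.17 ± 0.22.

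Genes of drug metabolism and secreted proteins held LKO-only peaks in 17.1 to 26.9% of those with an LKO peak. Cytochrome P450 genes of drug and steroid metabolism had 7 of 26, of which 4 peaks lay in promoters, such as those of Cyp4f15 (4.62 ± 0.18) and Cyp2c29 (3.88 ± 0.14). Conjugation and detoxification genes had 7 of 41. In intron 3 of Sult2a2, a hydroxysteroid and bile acid sulfotransferase gene, the peak held 5.30 and 4.64 log2 tags and GGGTCAGTGACCT at chr7:13751942-13751954, and in the promoter of Gstm1 it held 4.57 and 5.05 with AGGTCAATGTCCT at chr3:108018878-108018890. The Sult2a genes have close copies and only uniquely aligned reads were counted, which makes their values uncertain. Coagulation, complement and acute phase genes had 9 of 52, with the promoter peaks of Cfb (4.77 ± 0.48) and Plg (4.45 ± 0.08) at 0.174 and 0.042 kb from WT peaks. In F7, the coagulation factor VII gene, a weak intron 1 peak (3.92 ± 0.21) held AGGTCACTGACAT at chr8:13027504-13027516. Serpins had 3 of 15, led by exon 5 of Serpina6, corticosteroid-binding globulin (5.18 ± 0.38).

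Amino acid and one-carbon genes had 9 of 44, led by Gldc of the glycine cleavage system (4.48 ± 0.21). Intergenic peaks assigned to the amino acid transporter genes Slc38a2 (4.42 ± 0.56) and Slc38a4 (3.96 ± 0.03) each had an IR1 match of 1 mismatch. They lay far from these genes, at -91738 and 145364 bp from the TSS. Stress, autophagy and lysosome genes had 11 of 30. After Ctsl came Gadd45b, a stress-induced growth arrest gene (5.42 ± 0.52), and Atf3 (4.80 ± 0.16), and Ddit3, which encodes CHOP, and the autophagy gene Wipi1 had no WT peak assigned to them. A WT peak nevertheless lay 0.324 kb from the Ddit3 peak, which is annotated in the promoter of the neighbouring Mbd6, while the nearest to the Wipi1 peak was 40.8 kb away.

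Genes that mark other liver cells were few in the LKO list as a whole. LKO-only peaks were found at 7 of 11 endothelial, 3 of 7 stellate cell, 3 of 4 cholangiocyte, 1 of 4 lymphocyte and 0 of 2 macrophage marker genes with an LKO peak. Over all genes with an LKO peak the share was 30.3%. Counted over LKO peaks, the lists in the same order had 7 of 18, 3 of 9, 3 of 7, 2 of 6 and 0 of 3. Of all LKO peaks, 20.3% were LKO-only. These lists are too small to set against either share. Lyve1 (4.58 ± 0.47), Cdh5 (4.34 ± 0.42) and Rspo3 (3.96 ± 0.03) among the endothelial genes, Cygb and Nes among the stellate cell genes, and the lymphocyte gene Il7r, whose 2 peaks stood at 5.42 ± 0.15 and 4.24 ± 0.26, had no WT peak assigned to them. A WT peak nevertheless lay 8.35 kb from the Lyve1 peak. The other 4 endothelial genes, Dnase1l3, Stab1, Oit3 and Egfl7, and the stellate cell gene Pdgfrb had WT peaks. The 3 cholangiocyte genes, among them Aqp1 (5.15 ± 0.13) and Epcam (4.78 ± 0.66), all had one. A peak at a marker gene does not show that the cell type contributed it, since whole liver was crosslinked, and the cell of origin was not tested.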

How the data were processed

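FXR ChIP-seq was performed on liver chromatin crosslinked with DSG and formaldehyde, with antibody E4B8P. The authors aligned reads to mm10 with Bowtie (1.2), kept unique alignments, and pooled the ChIP libraries of each genotype to call peaks with HOMER (4.10), and annotated them. Per the file headers, the authors then ran DESeq2 on ChIP against input and filtered peaks at an FDR of 0.05 and at 1 log2 unit over input. The library values the authors deposited were taken as regularized log2 tags, which are normalized within a table only, so WT and LKO values were not compared. The deposited Peak Score is a signal scaled to 10000000 tags, and the deposited focus ratio is a fraction. Columns of fold changes and p-values of ChIP against input were not used. No column was left without a sample (0).

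LKO ChIP libraries held 21287263 and 22637613 tags, and the inputs held 6935001 (LKO) and 6964271 (WT). Intervals are 95% Wilson intervals and cover counting error only. Labels do not say whether replicates came from separate mice. No test between genotypes was run. Overlap and motif steps were tested on simulated data. The work used pysam 0.24.0, pandas 2.3.3, numpy 2.4.6 and scipy 1.17.1 in Python 3.11.15, with plots by matplotlib 3.10.9.

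The regions, gene lists and motifs were chosen with earlier results of these data known. Named were the 20 strongest LKO-only peaks, the 8 strongest with IR1 of at most 1 mismatch, the 5 strongest in promoters, the 8 strongest at genes with no WT peak, the 5 strongest over 100 kb from a WT peak, the 10 genes with the most peaks, the 3 peaks to each side of the input limit, and up to 4 genes per list with the strongest peak. Members named beyond that rule (exact IR1 matches, listed genes with an IR1 match or no WT peak) were chosen after their values were seen. A few items that this rule selects are not reported here.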

Additional observations from a re-analysis of the deposited data

How the results depend on the processing

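The 2535 LKO-only peaks became 438 when only peaks at or above the LKO median strength were kept, and the 438 became 474 to 478 when strength was judged without 1 LKO ChIP replicate. The 7 other settings of overlap and input limit gave counts from 2022 to 2719. The median strength of 4.19 ranged from 4.16 (without LKO ChIP replicate 1) to 4.32 (without LKO ChIP replicate 2), the second being beyond the SD of the replicate medians, 0.12. The promoter share was 13.7% when peaks within 1 kb of a TSS were counted. The IR1 share was 3.0% with at most 1 mismatch, 38.1% with at most 3 and 21.7% at or above the LKO median strength. The share at genes with a WT peak was 77.4% at or above the LKO median strength and 55.4% when only WT peaks at or above the WT median strength counted. For these the cause was not tested, apart from the mismatch limits, which widen or narrow the match by construction. In total, 8 of 27 recomputed values moved in this way and 19 did not.

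LKO peaks near the calling limit held an estimated 39 pooled LKO tags. Whether an LKO-only peak, weak or strong, was bound in WT cannot be read from these lists, which hold no WT value there. The WT pool rests mostly on 1 library, and lists without that library were not analysed here. No paired analysis was possible because the results are shares and counts of 1 list called on pooled libraries.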
